A study of Mus musculus with 30 samples.

Results

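Alx1, Ebf2, St6galnac5, St8sia1, Pantr1, En2 and Zic1 were followed as genes of regional identity in RNA of mouse brain microvascular fragments, that is, capillary and small-vessel pieces isolated from brain. They are 7 of the 18194 genes that the arrays cover through probe sets paired with a single gene. They were chosen by measured values: some were selected on an effect of the R26P genotype that differed between cerebrum and cerebellum, and transcription factors of forebrain and hindbrain were added. Their R26P values are therefore descriptions without a test. Tests are given only on the wild-type and ret arrays, which that R26P effect does not involve. The choice was still made with earlier results of these data known. The arrays hold 15 probe sets of these genes. The brightest of each gene, by its mean over all arrays, stands for it below.

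The study measured 30 Affymetrix arrays, 1 per RNA sample, in 8 groups. Both mutants lack normal supply of PDGF-B, the growth factor by which endothelial cells recruit pericytes, the mural cells of capillaries. R26P mutants (Tie2Cre, R26P+/0, pdgfb-/-) lack mouse Pdgfb and express 1 copy of a human PDGF-B transgene (R26P), switched on by Cre under the Tie2 promoter, which is active in endothelial cells and also known to be active in blood cells. Their controls (R26P+/0, pdgfb+/+) carry the silent transgene, keep both Pdgfb alleles and have no Cre named in the labels. Cerebrum and cerebellum were each represented by 4 control and 4 mutant arrays on a mixed C57/SV129 background. The labels contradict each other on their age, giving 1 year in one field and 2 months in another. The ret mutants (pdgfbret/ret, 4 arrays, 7 and 10 months) lack the motif that retains PDGF-B near the endothelium. They were set against pdgfbret/+ heterozygotes (4 arrays, 8 and 10 months), both on C57/B6/J, and no brain region is named for them. Wild-type mice (C57/B6/J, Notch3+/+, 2 months) gave 3 arrays each of cerebrum and cerebellum. Both sexes occur in every group, in a different balance in R26P controls and mutants. The replicates are labelled as biological ones.

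The values are log2 signals. The 24 arrays of the mutant models share a lowest value of 2.16 and the 6 wild-type arrays one of 2.17, so these were normalized apart, and wild type was compared only between its own regions. A signal at the lowest value carries no order, and a fold against it depends on the background correction. Pdgfb was at least 12.05 on the R26P control arrays and at most 8.01 on the mutants, as labelled. Mutant number 3 was the highest, at 8.01 in cerebrum and 7.51 in cerebellum, and the other mutant arrays stood at 4.73 to 6.45. The mean of 15 pericyte markers lay at 10.8 to 11.1 in R26P control cerebrum against 6.26 to 7.58 in mutant cerebrum, and at 11.6 to 11.7 against 7.07 to 8.40 in cerebellum. On the ret arrays it was 9.76 to 10.3 for controls and 5.95 to 6.91 for mutants. The mean of 10 endothelial markers stayed at 12.3 to 13.3 on all 30 arrays. In bulk RNA, fewer cells of a type and less RNA per cell cannot be told apart.

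The region labels of R26P mutant number 3 are not settled. Over 235 genes called between the wild-type regions (members left out), 208 to 224 differed in the wild-type direction within each control pair, and 209, 199, 156 and 187 within mutant pairs 1 to 4. Taken with the sign of wild type, the median gap between regions was 0.145 in mutant pair 3, and no other pair had less than 0.473. Gabra6, a receptor subunit of cerebellar granule neurons, stood at 2.21 on mutant cerebellum array 3 and between 2.93 and 3.85 on the other mutant cerebellum arrays. On mutant cerebrum array 3 it stood at 2.39, and at 2.16 on every other R26P cerebrum array. Gh, the pituitary growth hormone gene, stood at 14.75 on mutant cerebellum array 3 and below 8 on every other cerebellar array. The members' R26P differences, and counts that this pair moves by over 1.5 times, are also given without it. Gh also exceeded 8 on ret mutants 1, 2 and 4, on R26P control and mutant cerebrum 2 and 3, and on wild-type cerebrum 3, and its part in the results was not tested beyond the values given.

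During development, the forebrain and hindbrain are specified by different transcription factors, and the mural cells of their vessels differ in origin, with forebrain pericytes derived largely from neural crest. Alx1 is a homeodomain factor of cranial neural crest mesenchyme, and Ebf2 a helix-loop-helix factor of mesenchyme and of parts of the nervous system. En2 is a homeodomain factor of the midbrain-hindbrain boundary, and Zic1 a zinc-finger factor known from cerebellar development and meninges. Pantr1 is a long noncoding RNA beside Pou3f3, a factor gene of the forebrain. St8sia1 and St6galnac5 encode sialyltransferases that add sialic acid to gangliosides, the sialylated lipids of the cell surface: St8sia1 makes GD3, and St6galnac5 makes alpha-series gangliosides.

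RefSeq promoter windows on build GRCm38.p6, 250 bases before to 50 after the gene start, were found for 2 of the 7 genes. They are shown because no window was found for the other members. St8sia1 and Zic1 are described below as higher in control cerebellum than in control cerebrum and lower in R26P mutant cerebellum. Ebf2, which has no window here, is too. Both lie on the minus strand, St8sia1 at chr6:142964403-142964702 and Zic1 at chr9:91365719-91366018. Capitals mark CCAAT, the CCAAT box, on this strand or its reverse complement.
St8sia1: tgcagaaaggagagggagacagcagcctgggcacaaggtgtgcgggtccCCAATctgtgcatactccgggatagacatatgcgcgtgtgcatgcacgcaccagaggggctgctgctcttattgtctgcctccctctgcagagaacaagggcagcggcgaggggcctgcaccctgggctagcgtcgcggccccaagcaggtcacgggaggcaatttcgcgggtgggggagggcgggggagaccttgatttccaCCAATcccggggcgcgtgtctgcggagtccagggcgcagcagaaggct
Zic1: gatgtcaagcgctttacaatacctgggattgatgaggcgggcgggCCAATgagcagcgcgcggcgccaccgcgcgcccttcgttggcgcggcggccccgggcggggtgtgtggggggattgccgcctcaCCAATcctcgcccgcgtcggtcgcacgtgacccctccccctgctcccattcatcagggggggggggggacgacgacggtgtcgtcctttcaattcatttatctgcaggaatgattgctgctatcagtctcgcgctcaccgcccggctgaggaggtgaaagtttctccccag
Each window holds 2 CCAAT letter matches, at -201 and 2 in St8sia1 and at -205 and -121 in Zic1, counted by their first base from the gene start. On both strands, 37.4% of the 32851 RefSeq windows hold this motif. The E-box letters CANNTG occur once in each window and in 72.3% of all windows, and the GC box GGGCGG occurs 1 time in St8sia1, 3 times in Zic1 and in 35.7% of all. None of these matches overlap each other. The homeodomain core TAATTA is in neither window and in 5.3% of all. GC content was 64.7% in St8sia1 and 65.3% in Zic1 against a median of 52.7%, and CpG counts were 19 and 31 against a median of 7. These are descriptions of letters, not of bound factors.

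Among the R26P and wild-type groups, Alx1 stood well above the lowest signal in control and wild-type cerebrum alone. In R26P control cerebrum the 4 arrays stood at 4.92, 5.18, 4.48 and 6.26. In mutant cerebrum they stood at 2.30, 2.22, 2.38 and 2.38, all below the controls and close to the lowest value. All 8 cerebellar arrays of both R26P genotypes lay at 2.17 or 2.18. The mutant minus control difference was -2.89 ± 0.38 (SE of the difference of means, 4 against 4) in cerebrum and 0.00 ± 0.00 in cerebellum, where the controls were already at the lowest signal. In wild type the cerebrum arrays stood at 4.28, 6.01 and 4.34 and the cerebellum arrays at 2.37 each, without overlap. This difference of -2.50 ± 0.47 (SE from limma, as for all tested changes) did not pass the test (limma, adjusted p = 0.073). Of the 11243 genes tested, 2.12% were called (238, or 135 with the replicate number as a block). The Alx1 difference did not pass under 9 of 11 alternatives either, and with 1 array left out the adjusted p reached 0.24. Under the other 2 it passed. With an intensity trend and a robust prior the adjusted p was 0.027, and without wild-type cerebrum 2, the highest array, it was 0.0056 with a difference of -1.94.

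Alx1 on the ret arrays stood at 2.16, 2.55, 2.46 and 2.17 in controls and between 2.16 and 2.18 in mutants. These controls, of no named region, thus lay near the lowest signal, far below R26P control cerebrum. The change of -0.17 ± 0.10 did not pass the test (limma, adjusted p = 0.3). In the order of the 6 groups normalized together, R26P control cerebrum (mean 5.21 ± 0.76, SD, n = 4) stood apart from ret controls (2.34 ± 0.20) in next place, and the others lay between 2.17 and 2.32.

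St6galnac5 had the same groups high in the R26P set. R26P control cerebrum stood at 4.45, 3.94, 4.73 and 4.01, and all 12 arrays of control cerebellum and both mutant regions at the lowest value of 2.16. The difference in cerebrum was -2.12 ± 0.19, and in cerebellum there was no signal above the lowest from which to fall. In wild type, cerebrum stood at 3.54, 3.66 and 4.85 and cerebellum at 2.81, 3.13 and 3.54. Here both regions rose above the lowest value, the groups overlapped, and the difference of -0.86 ± 0.39 did not pass (limma, adjusted p = 0.36). Without wild-type cerebrum 3, the array with Gh at 13.93, it was -0.44. The value 3.54 occurred in both wild-type regions.

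St6galnac5 on the ret arrays lay between 2.16 and 2.21, controls and mutants alike (limma, change -0.01 ± 0.05, adjusted p = 0.88). There was thus no ret control signal against which a loss could show.

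Pantr1 was also higher in control cerebrum than in control cerebellum, and its cerebral signal in mutants stayed above its own lowest value. R26P control cerebrum stood at 6.90, 6.47, 6.99 and 7.00, and mutant cerebrum at 4.37, 4.22, 4.37 and 5.02. Every mutant was below every control, by 2.35 ± 0.22 log2 units or 5.08-fold. In cerebellum, controls stood at 4.17, 4.37, 4.36 and 4.37 and mutants at 3.71, 3.85, 3.71 and 3.71, again without overlap but with a smaller difference of -0.57 ± 0.06. Mutant cerebrum overlapped control cerebellum. The value 3.71, its lowest, was shared by several arrays, and a level under it would not show. The value 4.37 was likewise shared by arrays of several groups, and such ties carry no order. Pantr1 was thus lower in the mutants of both regions, not of cerebrum alone.

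In wild type, Pantr1 stood at 6.92, 6.82 and 7.74 in cerebrum and at 5.06, 4.74 and 4.86 in cerebellum. The 2 regions did not overlap, and the difference of -2.27 ± 0.26 (4.84-fold) passed the test (limma, adjusted p = 0.022). With the replicate number as a block, the adjusted p was 0.05, which no longer passed. It was 0.079 without cerebrum 1 and 0.055, 0.1 and 0.096 without cerebellum 1, 2 or 3, the difference staying between -2.45 and -1.98 over all 6 omissions. With no filter on low signals it was 0.1.

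Pantr1 was also lower in ret mutants, animals that the R26P effect used for choosing genes did not involve. Controls stood at 5.68, 4.92, 5.51 and 5.15 and mutants at 4.18, 4.37, 4.19 and 3.71. No mutant reached a control, and the change of -1.20 ± 0.20 (2.30-fold lower) passed the test (limma, adjusted p = 0.0075). Of all genes tested, 16.6% were called in this comparison, 900 higher and 970 lower. Ret mutants 1, 2 and 4 carried Gh above 8. With ret mutant 3 as the lone mutant array, assumed to vary as the controls did, the adjusted p was 0.13.

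Ebf2 was the opposite case, high in cerebellum. R26P control cerebellum stood at 5.69, 5.69, 4.40 and 5.03, and mutant cerebellum at 2.16, 2.24, 2.16 and 2.16, nearly all at the lowest value. Control cerebrum stood at 3.08, 2.21, 2.16 and 3.00 and all 4 mutant cerebrum arrays at 2.16. The mutant minus control difference was -3.02 ± 0.31 in cerebellum and -0.45 ± 0.25 in cerebrum, where 1 control was itself at the lowest value and the groups touched. In wild type, cerebellum stood at 4.00, 3.63 and 3.75 and cerebrum at 2.78, 2.26 and 2.26. The difference of 1.36 ± 0.18 (2.57-fold) passed the test (limma, adjusted p = 0.03). The call was lost, with adjusted p between 0.07 and 0.11, without any one array except cerebrum 1, and with no filter on low signals (0.12). The direction held each time.

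St8sia1 was likewise higher in control cerebellum than in control cerebrum. R26P control cerebellum stood at 3.57, 3.55, 4.45 and 3.79, and mutant cerebellum at 2.16 on all 4 arrays. Control cerebrum stood at 2.16, 2.16, 2.18 and 2.16 and mutant cerebrum at 2.16 throughout. The cerebellar difference was -1.68 ± 0.21, and in cerebrum the controls left nothing to lose. In wild type, cerebellum stood at 4.41, 4.35 and 4.41 and cerebrum at 3.20, 3.14 and 3.42. The replicates lay close together, and the difference of 1.13 ± 0.09 (2.20-fold) passed the test (limma, adjusted p = 0.0095, place 21 among the 11243 genes by p). St8sia1 entered the tests through 3 wild-type cerebellum arrays and 1 R26P control cerebellum array above 4, its high groups. Its test and place are therefore descriptions. The difference did not pass without wild-type cerebellum 2 (0.058) or 3 (0.064), with differences of 1.16 and 1.12.

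Neither Ebf2 nor St8sia1 rose above 2.16 on any ret array, control or mutant, so the ret comparison (limma, change 0 and adjusted p = 1 for both) could show no loss. Of the 6 members tested, 3 were thus called between the wild-type regions (Ebf2, St8sia1 and Pantr1) and 2 in ret mutants (Pantr1 and Zic1). The shares of all genes were 2.12% and 16.6%. Ebf2 entered the tests only through its 4 R26P control cerebellum arrays above 4, and Alx1, St6galnac5 and St8sia1 through 7, 4 and 4 arrays of control or wild-type groups. Since admission rested on high groups for these 4, their wild-type tests and the counts over the 6 are descriptions and support nothing further.

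**Figure D1:**
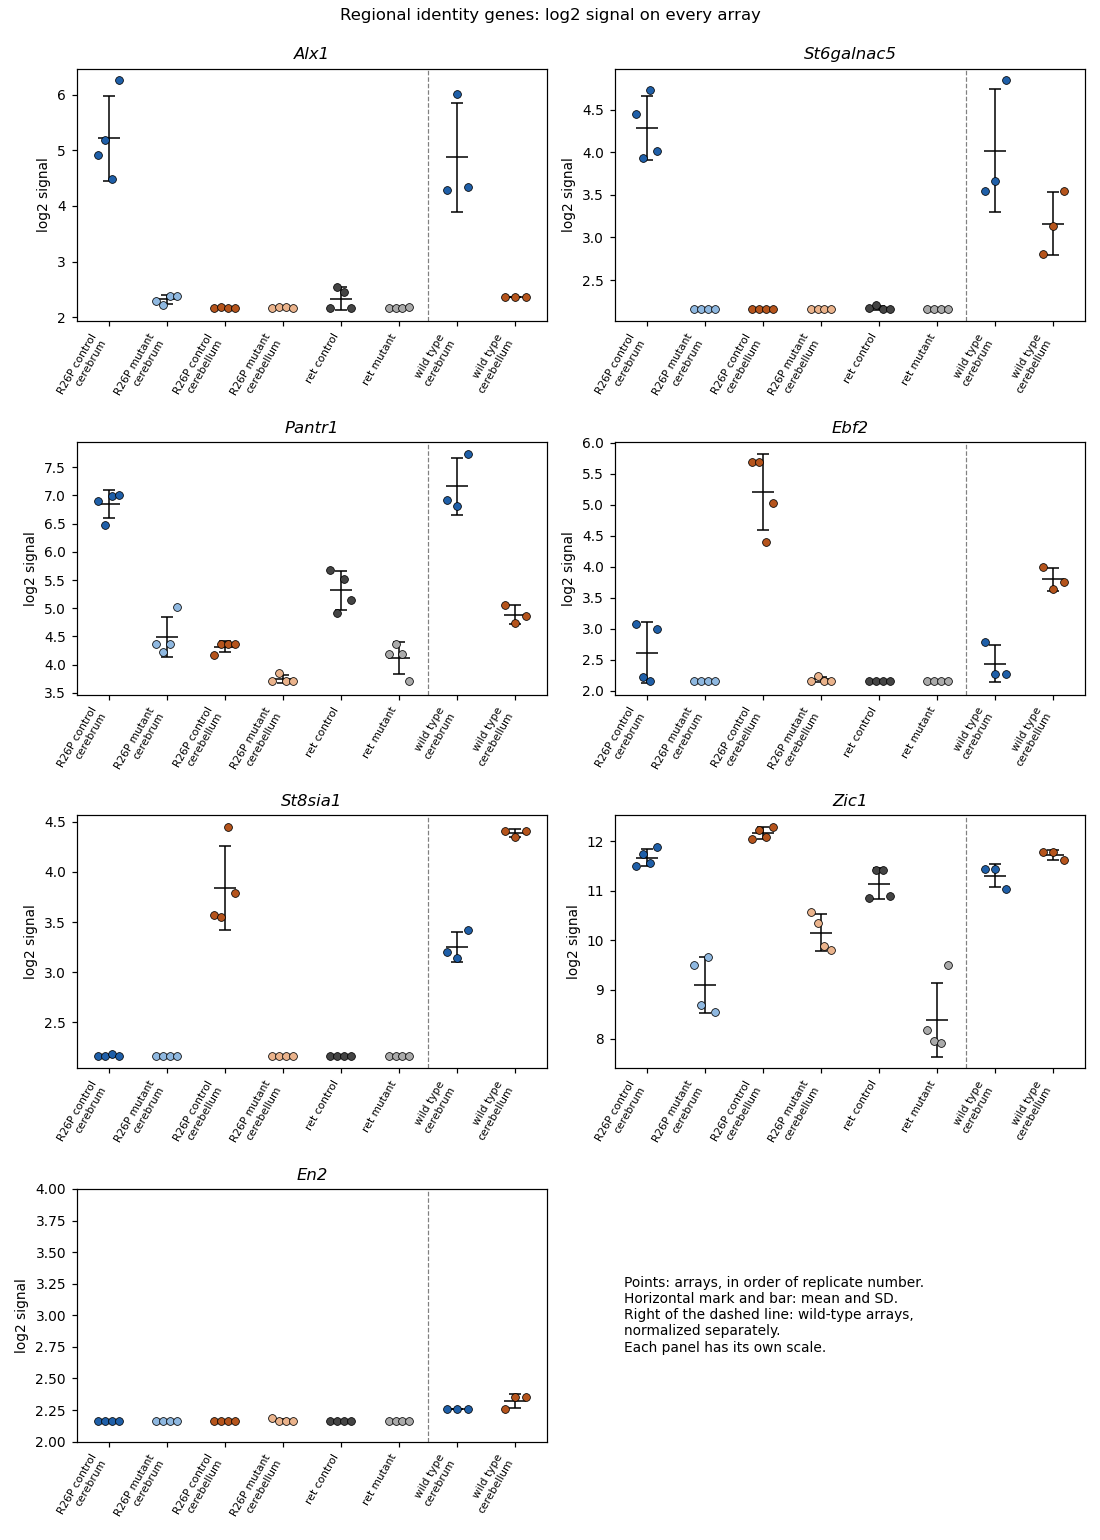
Log2 signal (vertical axis, each panel on its own scale) of the 7 genes on every array, by group, with the mean and SD. Among the 6 groups left of the dashed line, Alx1, St6galnac5 and Pantr1 are highest in R26P control cerebrum and Ebf2 and St8sia1 in R26P control cerebellum. Zic1 is high in every control group, and En2 lies at or near its lowest value on all 30 arrays.

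Zic1 was strongly expressed in every control group and lower in every mutant group. R26P control cerebrum stood at 11.50, 11.74, 11.55 and 11.88 and mutant cerebrum at 9.49, 8.69, 9.67 and 8.54. Control cerebellum stood at 12.05, 12.23, 12.08 and 12.29 and mutant cerebellum at 10.58, 10.35, 9.89 and 9.79. No mutant overlapped a control in either region. The differences were -2.57 ± 0.30 (5.95-fold lower) in cerebrum and -2.01 ± 0.20 (4.04-fold lower) in cerebellum, and without mutant number 3 they were -2.76 and -1.92. Unlike Alx1 or Ebf2, Zic1 kept a high signal on the mutant arrays.

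Zic1 fell in ret mutants as well. Controls stood at 10.85, 11.41, 11.41 and 10.88 and mutants at 8.18, 7.95, 7.93 and 9.49. Every mutant was below every control, ret mutant 4 less so than the others. The change of -2.75 ± 0.36 (6.74-fold lower) passed the test (limma, adjusted p = 0.0028), and over 17 alternatives the adjusted p stayed between 1.1e-06 and 0.029. Its second probe set gave group means of 10.28 ± 0.26 (SD, n = 4) in ret controls and 7.23 ± 0.46 in mutants.

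Zic1 was higher in cerebellum than in cerebrum within every numbered pair. In wild type, cerebellum stood at 11.79, 11.78 and 11.61 and cerebrum at 11.44, 11.44 and 11.04. Cerebellum was higher in 3 of 3 pairs without overlap, but the difference of 0.42 ± 0.13 did not pass (limma, adjusted p = 0.2). Within numbered pairs of R26P controls, cerebellum exceeded cerebrum by 0.55, 0.50, 0.53 and 0.41, and within mutant pairs by 1.09, 1.66, 0.22 and 1.26. Mutant pair 3, of unsettled region labels, had the smallest difference, and the mutant mean was 1.06 with it and 1.33 without it. In the order of means, R26P control cerebellum (12.16), R26P control cerebrum (11.67), ret controls (11.14), R26P mutant cerebellum (10.15) and R26P mutant cerebrum (9.09) did not overlap as neighbours, while R26P mutant cerebrum and ret mutants (8.39) did.

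En2, the hindbrain factor, went against its place in the set. Its signal lay between 2.16 and 2.18 on all 24 arrays of the mutant models, at 2.26 on the 3 wild-type cerebrum arrays and at 2.26, 2.35 and 2.35 in wild-type cerebellum. No array rose above the filter of 4, so En2 was not tested, and no loss in R26P mutants could be seen. The further probe sets of Alx1, Ebf2, St6galnac5 and St8sia1, 7 in all, also stayed near the lowest signal, with 2.74 the highest value on any array. The patterns of these 4 genes therefore rest on 1 probe set each.

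By region, every mutant lay below every control for 4 of the 7 genes in cerebrum (Alx1, St6galnac5, Pantr1 and Zic1) and for 4 in cerebellum (Ebf2, St8sia1, Pantr1 and Zic1). Among all genes tested, 13.0% and 11.5% had every mutant below every control in these regions, and 18.7% and 15.6% were called by limma in either direction. Since the genes were chosen in part from these arrays, nothing is read from the counts. Cerebellar minus cerebral effects, the quantity some were chosen by, were 2.89 for Alx1, 2.12 for St6galnac5, 1.77 for Pantr1, 0.56 ± 0.35 for Zic1, -1.67 for St8sia1 and -2.57 for Ebf2. Across all genes, limma called 13 (0.116%) for this difference, and the members get no test on it. With the replicate block, which the pairing of regions bears out, the count was 29, and without mutant number 3 it was 6. Without that pair the effect in cerebrum was -2.91 for Alx1, -2.12 for St6galnac5, -2.30 for Pantr1 and -0.45 for Ebf2. In cerebellum it was -3.02 for Ebf2, -1.68 for St8sia1 and -0.56 for Pantr1. Only for Zic1 did the difference of effects then move by more than 0.1, to 0.84 ± 0.39. Within mutant pairs, St6galnac5 and St8sia1 differed by 0 between regions and Pantr1 by -0.66, -0.38, -0.66 and -1.32. Over all genes, 1.17% were called between regions in R26P controls (limma, 132 genes, 475 with the replicate block, and 48 to 193 with 1 array left out). In mutants 0% were called (limma, 0 genes with or without the block, 621 at an unadjusted p under 0.05), and 15 without mutant number 3.

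**Figure D2:**
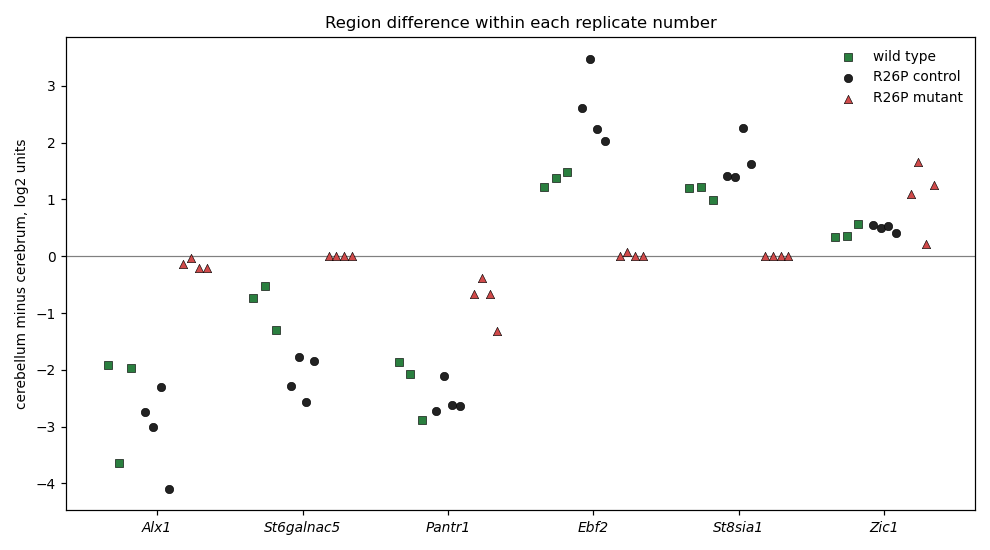
Cerebellum minus cerebrum (log2 units, vertical axis) within each replicate number for 6 genes, in wild type (3 pairs), R26P controls and R26P mutants (4 pairs each). Alx1, St6galnac5 and Pantr1 lie below 0 and Ebf2 and St8sia1 above it in wild type and controls. In mutants St6galnac5 and St8sia1 lie at 0 and Zic1 between 0.22 and 1.66.

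**Figure D3:**
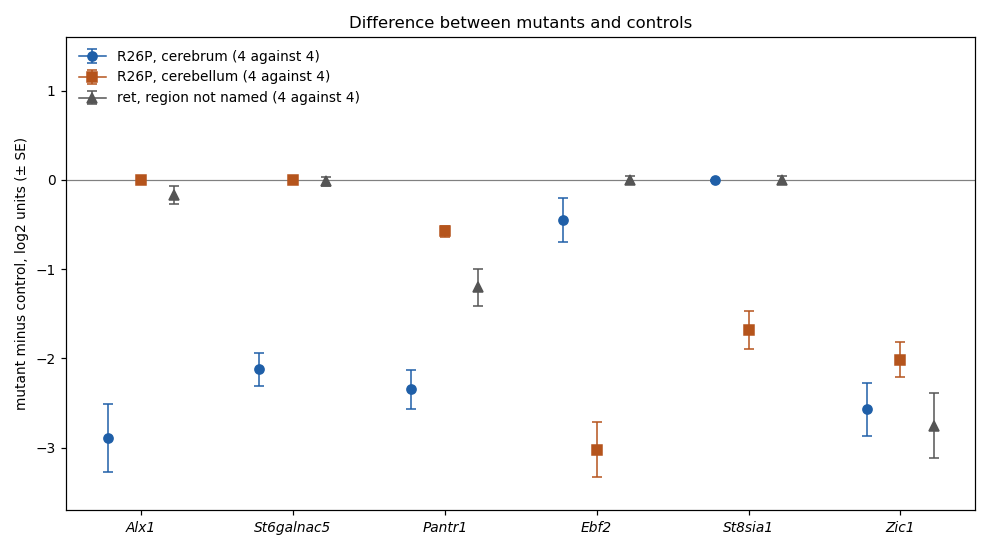
Mutant minus control (log2 units, vertical axis, ± SE) for 6 genes in R26P cerebrum, R26P cerebellum and ret, 4 arrays against 4 each. R26P bars are the SE of the difference of means and ret bars the SE from limma, so their lengths are not alike. Zic1 and Pantr1 lie below 0 in all 3, whereas Alx1 and St6galnac5 are far below 0 in R26P cerebrum alone and Ebf2 and St8sia1 are lowest in R26P cerebellum. Points at 0 have controls at the lowest signal.

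The genes whose pattern over the 16 R26P arrays was most like each member were ranked by the root mean square difference of log2 values after each gene's mean was removed. Zic1 lay nearest to Notch3, a receptor of mural cells, at 0.176, and to Nr2f1, a nuclear receptor factor, at 0.213. Notch3 means were 12.14 and 12.82 in control cerebrum and cerebellum and 9.73 and 10.69 in the mutants. In ret mutants, arrays not used for the ranking, Notch3 changed by -3.27 (limma, adjusted p = 0.0026) and Nr2f1 by -2.51 (adjusted p = 0.00085). Notch3 is also on the list of pericyte markers.

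Alx1 lay nearest to Cspg5, a neural proteoglycan, at 0.311, and to Nrn1, a neurite-outgrowth protein, at 0.546. Between the wild-type regions, Nrn1 was lower in cerebellum (change -2.44, limma, adjusted p = 0.0018), and the Cspg5 change of -2.02 did not pass (adjusted p = 0.1). St6galnac5 lay nearest to Dkk3, a secreted protein of the Dickkopf family, at 0.373, and to Chst2, a sulfotransferase of glycans, at 0.377. Chst2 was also the gene nearest to Pantr1, at 0.395, followed by Cspg5 at 0.468. In wild type, cerebellum was lower for Dkk3 (change -0.97) and Chst2 (change -2.28), each with a limma adjusted p of 0.015. Chst2 also fell in ret mutants, by 1.41 log2 units (limma, adjusted p = 0.029), as Pantr1 did.

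St8sia1 lay nearest to Sfrp2, a secreted Wnt modulator, at 0.234, and to Ncald, a neuronal calcium sensor, at 0.345. Ncald was higher in wild-type cerebellum by 0.50 (limma, adjusted p = 0.031), and Sfrp2 by 1.12 without passing (adjusted p = 0.19). Ebf2 lay nearest to Ubxn11 at 0.564 and Rasl11a at 0.577, the largest distances among the first-ranked genes. Neither passed between the wild-type regions (limma, adjusted p = 0.11 for both). Sfrp2 and Rasl11a exceeded 4, among the R26P arrays, in control cerebellum alone, so their tests are descriptions as well.

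**Figure D4:**
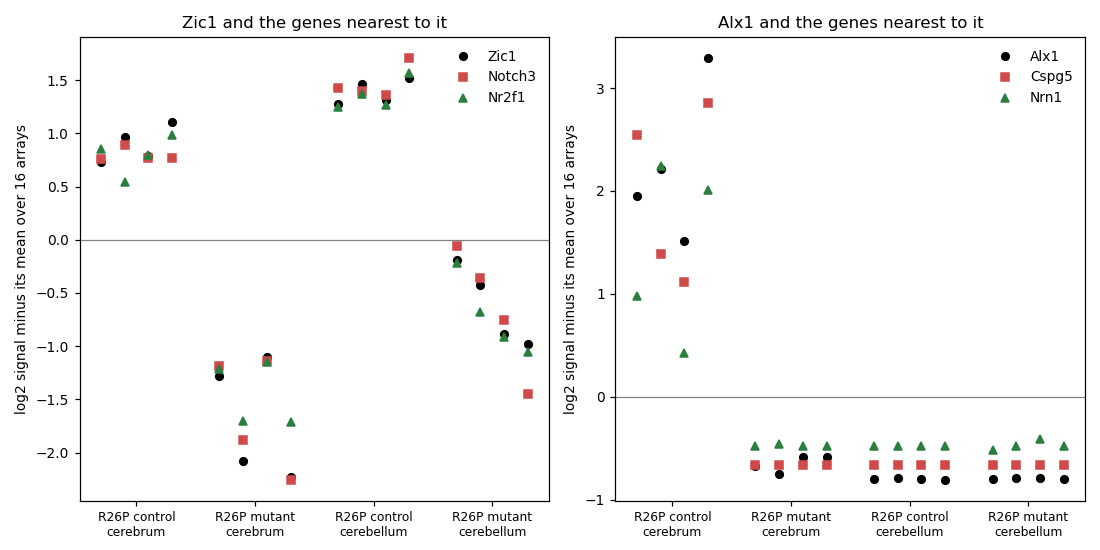
Log2 signal minus the gene's mean over the 16 R26P arrays (vertical axis) by group, with arrays in order of number, for Zic1 with Notch3 and Nr2f1 (left) and Alx1 with Cspg5 and Nrn1 (right). By group mean, the 3 genes on the left are highest in control cerebellum and lowest in mutant cerebrum, and those on the right rise above their mean in control cerebrum alone.

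Few other genes of forebrain identity reached the level needed for a test. Of 27 on the arrays, 7 were tested, and the rest, among them Emx1, Emx2 and Tbr1, did not exceed 4 on 3 arrays. In wild type 1 was called, Hopx, higher in cerebellum (0.82 ± 0.09, limma, adjusted p = 0.022), and leaving out 1 array gave 0 to 2 calls. With the replicate block 0 were called in wild type, and 3 of 7 were higher in cerebellum of R26P controls, where the test without the block called 0 (limma, 4 at an unadjusted p under 0.05). In R26P mutants, 3 of 7 fell in cerebrum and 3 in cerebellum, the same 3 named genes in both: Nr2f1 (-2.24 and -2.08), Hopx (-2.08 and -1.93) and Pou3f3 (-0.87 and -0.59). Limma called 42.9% of the list in each region, against 18.7% and 15.6% of all genes. The first of these fell in ret mutants too, the 1 call there. The list's median change was -0.87 in cerebrum and -0.59 in cerebellum, against 0.01 and 0.00 over all genes. Pou3f3, the coding neighbour of Pantr1, thus fell in both R26P regions, by less than Pantr1 in cerebrum.

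Of 36 hindbrain identity genes on the arrays, 9 were tested. In wild type, 2 were higher in cerebellum: Zic4, a relative of Zic1, by 1.00 ± 0.15 (limma, adjusted p = 0.041) and Hoxb3 by 0.62 ± 0.06 (adjusted p = 0.014). For both genes, wild-type cerebellum was the only group with a mean above 4 (4.25 and 4.26). Their admission to the tests thus leaned on the group called higher, and these calls are descriptions. The list's median was 0.28 against -0.04 over all genes. With any 1 wild-type array left out, the list had 0 or 1 call, and with the replicate block 1. In R26P controls, Meis1, a cofactor of Hox proteins, was higher in cerebellum by 0.95 ± 0.11 (adjusted p = 0.0097), the 1 call of 9. Its group mean was above 4 only in R26P control cerebellum and the wild-type groups, so its calls are descriptions too. Zic4 fell in R26P mutant cerebrum (-0.55, adjusted p = 0.019) and Meis1 in mutant cerebellum (-1.02, adjusted p = 0.0069), 1 call of 9 in each. That share, 11.1%, is below the 18.7% and 15.6% of all genes called there. Without mutant cerebrum 2 the count in cerebrum was 0, and without control cerebellum 4 that in cerebellum was 2. In ret mutants, limma called 0 of 9, with 2 at an unadjusted p under 0.05, and 1 without ret mutant 3. The remaining 27, among them En1, Pax3 and Gbx2, did not exceed 4 on 3 arrays.

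Factors of neural crest, mesenchyme and mural cells, the setting of Alx1 and Ebf2, were called in both directions in the mutants. Of 24 tested, 10 fell and 2 rose in R26P cerebrum, 11 fell and 2 rose in cerebellum, and 9 fell and 1 rose in ret mutants. The shares called were 50%, 54.2% and 41.7%, against 18.7%, 15.6% and 16.6% of all genes. Tbx2, a T-box factor, fell by 4.20 ± 0.27 and 3.74 ± 0.55 log2 units in the R26P regions (changes -4.20 and -3.74) and by 3.43 ± 0.24 in ret mutants (change -3.43, limma, adjusted p = 0.00025). Heyl, a Notch target, and Foxs1, a pericyte factor, also fell in all 3. The medians were -0.38, -0.30 and -0.45, against 0.01, 0.00 and 0.01 over all genes. Between regions, Tfap2a, a neural crest factor, had the direction of Alx1: cerebellum was lower in wild type (change -1.13 ± 0.11, limma, adjusted p = 0.016) and in R26P controls (change -1.04 ± 0.09, adjusted p = 0.0046). It was the 1 call of 24 in wild type, where the list had 0 or 1 call with 1 array left out. Without R26P mutant cerebellum 3, the calls in R26P cerebellum numbered 8 instead of 13. In R26P controls, Foxs1 (1.32) and Heyl (0.50) were higher in cerebellum, and with 1 array left out the list had 1 or 2 calls instead of 3. With the replicate block it had 5 in R26P controls and 2 in wild type.

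For other genes of ganglioside and sialic acid synthesis, no regional difference was called. Of 25 tested, limma called 0 between the wild-type regions, with 4 at an unadjusted p under 0.05, and 0 between R26P control regions, with 2. The medians were -0.05 and -0.04 against -0.04 and 0.03 over all genes. In the mutants members moved both ways: 4 rose and 3 fell in R26P cerebrum, 4 rose and 4 fell in cerebellum, and 4 rose and 2 fell in ret. The shares called were 28%, 32% and 24%, against 18.7%, 15.6% and 16.6% of all genes. Without the 3 ret mutants with high Gh, 2 genes were called in ret. St8sia2, which makes polysialic acid, rose by 2.43 ± 0.18 and 2.68 ± 0.21 in the R26P regions and by 2.14 ± 0.32 in ret mutants (limma, adjusted p = 0.0048). St3gal5, the GM3 synthase whose product St8sia1 extends, rose by 1.00 in R26P cerebrum and 1.48 in ret mutants. St8sia6 fell by 1.03 in R26P cerebrum and 2.04 in ret mutants (changes -1.03 and -2.04).

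Pericyte markers fell in every mutant group, as Zic1 and Pantr1 did. Alx1, St6galnac5, Ebf2 and St8sia1 had controls near the lowest signal in ret and in either R26P cerebrum or cerebellum, where little fall could show. All 15 pericyte markers tested fell in ret mutants and in both R26P regions. Of all genes, 18.7%, 15.6% and 16.6% were called in R26P cerebrum, R26P cerebellum and ret. In R26P controls, 9 of the 15 were higher in cerebellum than in cerebrum (60%, against 1.17% of all genes called). In wild type 5 of the 15 were (33.3% against 2.12%). The pericyte list was thus higher in cerebellum. In R26P controls Ebf2, St8sia1 and Zic1 were also higher there, and Alx1, St6galnac5 and Pantr1 were lower. In wild type the array means of the pericyte list were 10.5 to 10.7 in cerebrum and 11.0 to 11.3 in cerebellum. Markers of astrocytes and smooth muscle were lower in the mutants too. Of 9 astrocyte markers, 8 fell in R26P cerebrum, 7 in R26P cerebellum and 5 in ret. Their array means were 8.79 to 9.17 in control and 6.83 to 7.38 in mutant cerebrum, and 8.59 to 9.20 in control and 6.75 to 7.99 in mutant cerebellum. Of 10 smooth muscle markers, 9 fell in R26P cerebrum, 4 in cerebellum and 1 in ret. The ret share, 10%, is below the 16.6% of all genes. Their array means were 10.6 to 11.2 in control and 8.89 to 9.78 in mutant cerebrum. The mean of 5 tested markers of cerebellar granule and Purkinje neurons was 4.19 to 4.80 in R26P control cerebellum and 3.20 to 3.84 in mutant cerebellum. It was 3.18 to 3.91 in control cerebrum and 2.66 to 3.09 in mutant cerebrum, where St8sia1 stayed at its lowest signal in both. In the wild-type regions it was 4.95 to 5.27 in cerebellum and 4.20 to 4.61 in cerebrum, with 2 of 5 genes called and a median change of 0.07. Of these 5 markers, 2 fell in mutant cerebellum and 1 in mutant cerebrum (40% and 20%, against 15.6% and 18.7% of all genes called). Gabra6 was called lower in mutant cerebellum and higher in cerebellum of wild type and R26P controls. It exceeded 4 only on arrays of wild-type and R26P control cerebellum, its high groups. Its calls, and the shares of the list that hold them, are therefore descriptions. It stood at 2.16 in R26P control cerebrum and at 3.70 to 4.96 in control cerebellum. In mutant cerebellum it stood at 2.21 to 3.85, lowest on array 3 of unsettled region. The markers Cbln1, Cbln3, Fat2 and Pcp2 did not exceed 4 on 3 arrays. Fibroblast and meningeal markers, a further setting of Zic1 and Ebf2, fell for 5 of 7 in R26P cerebrum, 3 of 7 in cerebellum and 1 of 7 in ret. The ret share, 14.3%, is likewise below the 16.6% of all genes. Their array means were 9.09 to 10.1 in control cerebrum against 7.87 to 8.96 in mutant cerebrum. Between the wild-type regions, limma called 2 of 7, Lum and Dcn, higher in cerebellum (28.6%, against 2.12% of all genes). The array means were 8.99 to 9.37 in wild-type cerebrum and 9.67 to 9.86 in wild-type cerebellum. Between R26P control regions 0 of 7 were called, with 4 at an unadjusted p under 0.05. Choroid plexus markers had array means of 10.8 to 11.4 in wild-type cerebrum and 11.8 to 12.4 in wild-type cerebellum. Limma called 1 of 6 higher in wild-type cerebellum (16.7%, against 2.12% of all genes). In R26P controls their means were 10.7 to 12.1 in cerebrum and 11.6 to 13.0 in cerebellum, with 0 called. The part of these cell types in the members' changes and region differences was not tested.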

How the data were processed

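RNA of brain microvascular fragments was measured on 30 Affymetrix arrays. Per the submitters' processing notes, the authors' deposited log2 signals come from GCRMA 2.6.0, run in R 2.4.1, and no transformation was added. GCRMA sets weak probe sets to a shared lowest value, so a loss below it is not seen. Of 45101 probe sets, 34958 were paired with 1 gene (932 with several, 9211 with none) by the platform annotation. The brightest stood for each of 18194 genes, and 11243 exceeded 4 on at least 3 arrays and were tested. Groups came from the labels. Tests used limma 3.58.1 in R 4.3.3 (lmFit, eBayes), two-sided, on the arrays compared, with Benjamini-Hochberg adjustment and a threshold of 0.05, and were tested on simulated data. For changes with a test, ± is the SE from limma, which draws on the spread of all genes tested. For the members' R26P differences it is the SE of the difference of means. Array sums carry no depth: the number of arrays limits precision.

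The members and gene lists were chosen with earlier results of these data known. Named besides the members are the 2 genes nearest to each, up to 4 called genes per list with the largest change, and Gabra6, Gh and Pdgfb as label checks. Untested list genes are named as examples only. The main tests had no replicate block. In region comparisons they do pair arrays: after removal of group means, same-numbered arrays correlated at 0.344 to 0.840, and in each region comparison every array correlated best with its own number. Whether the numbers also pair controls with mutants is not settled. In ret no number correlated best with its own. In R26P, numbers 2 and 4 in cerebrum and number 2 in cerebellum did, at 0.223 to 0.337. Gh in cerebrum also followed the number. It stood at 4.83, 14.19, 14.58 and 2.66 in R26P controls and at 4.40, 14.69, 14.89 and 2.90 in mutants. Alternatives were other filters, probe set summaries, normalization, priors, the block, and leaving out arrays. Promoter windows are RefSeq's.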

Additional observations from a re-analysis of the deposited data

Results flagged for a closer look

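In 8 of 28 sets of 4 arrays with any spread, 1 array stood apart from the other 3 by more than a limit that chance exceeds in about 1 in 20 sets. For 5 of them the distance lies at the lowest signal: Ebf2 in R26P mutant cerebellum 2 (2.24), St6galnac5 in ret control 2 (2.21), St8sia1 in R26P control cerebrum 3 (2.18), En2 in R26P control cerebrum 4 (2.16) and En2 in R26P mutant cerebellum 1 (2.18). Pantr1 stood apart in R26P control cerebellum 1 (4.17, the others near 4.36) and in R26P mutant cerebellum 2 (3.85, the others at 3.71). The value 3.71 is the lowest of Pantr1 on these arrays, so the latter distance also lies at a lowest value. Zic1 stood apart in ret mutant 4 (9.49), where the next array was at 8.18. Without that array the ret change of Zic1 was -3.12.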

How the results depend on the processing

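No member's wild-type or ret change reversed under any setting run. Of the R26P values of the 6 tested members, only the Alx1 difference in cerebellum, where all arrays are near the lowest signal, took both signs, within 0.01 of 0. Counts of genes called moved as follows. Without a filter on low signals they were 58 between wild-type regions (238 as reported), 1229 in ret (1870), 1390 in R26P cerebrum (2097), 1081 in R26P cerebellum (1758), 47 between R26P control regions (132), 1 between mutant regions (0) and 6 for the difference of the R26P effect between regions (13). With the replicate block they were 135 in wild type, 987 in ret, 1278 in R26P cerebrum, 475 between control regions and 29 for the difference of effects. The numbers pair the regions, and whether they pair controls with mutants is not settled. The fewer calls with the block in ret and R26P cerebrum are therefore given without a reading. The block ended the wild-type call of Pantr1 and no other member's call. With a mean above 6, wild type gave 151 and the difference of effects 0. With all probe sets of a gene averaged, control regions gave 68 and the difference of effects 4. With all groups in 1 fit, mutant regions gave 6. Without mutant number 3, R26P cerebellum gave 1117, mutant regions 15 and the difference of effects 6. Without the ret mutants with Gh above 8, ret gave 919. Leaving out 1 array at a time gave 12 to 159 in wild type, 1153 to 1931 in ret, 1387 to 1945 in R26P cerebrum, 1117 to 1572 in R26P cerebellum, 48 to 193 between control regions, 0 to 42 between mutant regions and 6 to 14 for the difference of effects. Apart from settings with fewer genes or arrays, the cause of these shifts was not tested. Signals at the lowest value limit what Alx1, Ebf2, St6galnac5, St8sia1 and En2 can show.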
